A study of Homo sapiens with 6 samples.

Results

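The genes described here were 10 components of the smooth muscle contractile apparatus and their close relatives: the transgelins TAGLN, TAGLN2 and TAGLN3, the calponins CNN1, CNN2 and CNN3, and MYH11, LMOD1, SMTN and CALD1. They were found by symbol among the 38557 genes listed in the deposited count files, and all 10 were present. The set was chosen by function, and partly on the measured differences of TAGLN2 and LMOD1 between the media compared below. For this reason every difference of a member between media is given as a description, with its standard error (SE) and without a p-value, and the counts of members past a threshold are part of that description and test nothing. Cardiomyocytes made from WTC11, an established line of human induced pluripotent stem cells that the labels give as wild type, were profiled by RNA sequencing. One group of 3 libraries came from cells in RPMI plus B27, a basal medium with a serum-free supplement, and the other 3 from cells in DMEM plus fatty acids. The libraries are labelled biological replicates 1 to 3 in each medium. All came from a single cell line, and neither separate differentiations nor the time in each medium are given, so the spread between libraries may be partly technical.

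Smooth muscle contracts through filaments of actin and smooth muscle myosin that are built from other isoforms than those of the heart. Transgelins and calponins bind actin filaments, caldesmon and calponin restrain the actin-activated activity of myosin, leiomodin starts new actin filaments, and smoothelin marks contractile smooth muscle cells. Several of these genes are also transcribed in the embryonic heart and in immature cardiomyocytes, and transgelin and the smooth muscle actin genes are switched on in activated fibroblasts. Serum response factor (SRF) drives many of them through the CArG box, a short A/T-rich element, together with myocardin and myocardin-related factors. TEAD factors bind the sequence CATTCC, which also lies near muscle genes.

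The libraries held 23232324 to 31035389 counts in gene rows, and a count of 0 allowed a level of up to 0.0967 to 0.129 CPM (counts scaled to the library total), which covers counting error only. All 13 cardiomyocyte markers listed were expressed, with summed levels of 26426 to 40286 CPM. Of the skeletal muscle markers listed, the factors MYOD1, MYF5 and PAX7 had 0 counts in every library, MYF6 at most 1 and MYOG at most 5. The others, ACTA1 and CKM, were expressed, at 16.7 to 648.6 CPM and 411.8 to 919.4 CPM. These marker levels and the CPM values below are scaled by TMM, a scaling that balances the bulk of genes between libraries. The edgeR quasi-likelihood test with Benjamini-Hochberg adjustment called 219 of 16107 genes at a threshold of 0.05 (1.36%), of which 172 (1.07%) were lower and 47 higher with DMEM plus fatty acids. Scaling by total counts alone gave 74 higher and 128 lower and shifted the median over all genes from 0.01 to 0.12 on the log2 scale.

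The promoters of 8 members were in the RefSeq table used (GRCh38.p14), with 18 start sites between them. TAGLN and MYH11 were not searched. For the others, the 250 bases before each start were searched on both strands. The CArG box was found before 2 of these 18 starts, in CNN2 and SMTN, and before 1.16% of the 35116 starts of all genes. The 6 bases CATTCC were found before 5 of the 18, in CNN3, LMOD1, SMTN and CALD1, and before 11.9% of all starts. The sequences around 5 of these matches are shown because SRF and TEAD factors are the known regulators of this gene programme. They run 5′ to 3′ on the strand of the gene, and capitals mark the matched bases. The CNN2 match lies 89 to 80 bases before the start (chr19:1026489-1026558, plus strand) and that of SMTN 44 to 35 bases before its most downstream start (chr22:31084922-31084991, plus strand). The LMOD1 match, 126 to 121 bases before the start, is on the opposite strand, where CATTCC reads GGAATG (chr1:201946639-201946704, minus strand). The CNN3 (chr1:94925876-94925941, minus strand) and CALD1 (chr7:134745395-134745460, plus strand) matches are on the strand of the gene. They lie 142 to 137 and 42 to 37 bases before a start, in each case 1 of several starts of the gene. The CATTCC match of SMTN and a further one of CALD1, whose windows hold 66 and 56 annotated exon bases, are not shown.
CNN2: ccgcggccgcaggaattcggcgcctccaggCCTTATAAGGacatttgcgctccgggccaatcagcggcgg
SMTN: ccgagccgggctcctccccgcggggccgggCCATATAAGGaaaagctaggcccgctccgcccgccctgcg
LMOD1: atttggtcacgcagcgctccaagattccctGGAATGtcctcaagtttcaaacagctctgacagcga
CNN3: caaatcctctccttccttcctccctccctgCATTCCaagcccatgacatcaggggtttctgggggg
CALD1: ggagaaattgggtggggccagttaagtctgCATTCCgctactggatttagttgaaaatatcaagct
A match is a description of these letters, and binding was not measured.

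Of the 10 members, 9 had enough counts to be tested, and all 9 had a negative log2 fold change in DMEM plus fatty acids, as did 49.0% of all tested genes. Their median log2 fold change was -1.28, against 0.01 over all tested genes. TAGLN2, LMOD1, CALD1 and CNN3 were called lower, which is 4 of 9 members (background 1.07% lower). With the replicate number as a block it was 5 of 9, with CNN1 added (background 3.42% lower). CALD1 was not called when libraries were scaled by total counts. The DESeq2 Wald test called 6 of 9, adding CNN1 and CNN2 (background 5.14% lower). The 3 libraries of each medium did not overlap for 7 members, the exceptions being MYH11 and SMTN, and the same held in the downward direction for 12.8% of all tested genes. Within the 3 shared replicate numbers, 8 members were lower in DMEM plus fatty acids in all 3, as were 24.0% of all tested genes. No reading follows from these counts, because the set was chosen partly on this contrast. In these bulk libraries, fewer cells of a type and less RNA per cell cannot be told apart.

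**Figure D1:**
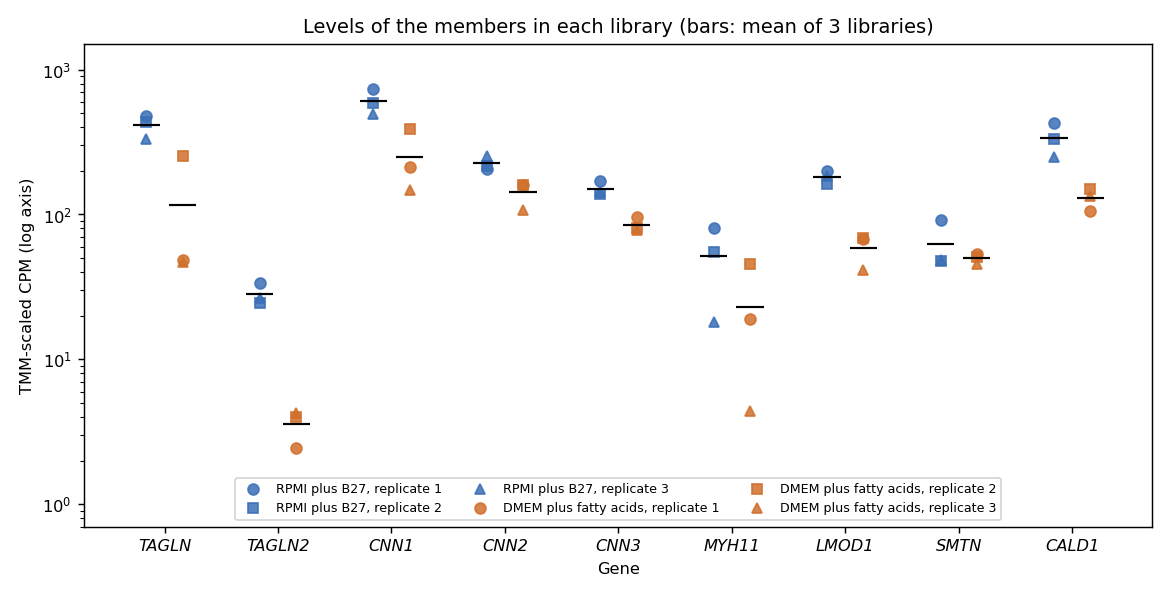
TMM-scaled CPM of the 9 tested members (log axis) in 3 RPMI plus B27 libraries (blue) and 3 DMEM plus fatty acids libraries (orange). Symbols mark the replicate number, and horizontal bars are means of 3 libraries. TAGLN2, at 24.7 to 33.6 CPM against 2.45 to 4.24 CPM, is the most separated member, and the media overlap for MYH11 and SMTN.

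Of the transgelins, TAGLN2 had the largest difference between media of the 9 tested members. TAGLN2 (chr1:159918111-159925507, minus strand) encodes the transgelin found in many non-muscle cells. It stood at 33.6, 24.7 and 26.4 CPM in RPMI plus B27 replicates 1 to 3, and at 2.45, 4.01 and 4.24 CPM in DMEM plus fatty acids replicates 1 to 3. Every RPMI plus B27 library was thus far above every DMEM plus fatty acids library, and the spread inside a medium was small beside that gap. The means were 28.2 ± 4.76 and 3.57 ± 0.972 CPM (SD, n = 3 each), with a log2 fold change of -2.98 ± 0.26 (SE), a level 7.87-fold lower. The raw counts behind the lower group were only 57, 120 and 143, against 580 to 893 in the other. Leaving out 1 library at a time kept the log2 fold change between -3.11 and -2.78.

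TAGLN (chr11:117199294-117207465, plus strand), the smooth muscle transgelin also known as SM22-alpha, was far less even. It was at 477.7, 431.7 and 333.1 CPM in RPMI plus B27 and at 48.6, 253.3 and 47.3 CPM in DMEM plus fatty acids. DMEM plus fatty acids replicate 2 lay over 5-fold above the other 2 libraries of its medium (ratio of highest to lowest 5.35), yet below every RPMI plus B27 library. The log2 fold change was -1.83 ± 0.65 over all 6 libraries and -3.11 without DMEM plus fatty acids replicate 2, the only setting tried in which TAGLN was called. Within replicate numbers 1, 2 and 3 the log2 differences were -3.30, -0.77 and -2.82. TAGLN3 (chr3:111998922-112013885, plus strand), the transgelin of neurons, had 0 to 3 counts in each library and was not tested. The 10 neuronal markers summed to 689.9 to 964.2 CPM in RPMI plus B27 and 504.2 to 748.3 CPM in DMEM plus fatty acids, nearly all from NCAM1, an adhesion gene that is not limited to neurons. Of these markers 0 of 8 tested passed by edgeR without the block. An unadjusted p under 0.05 was reached by 3, beside 17.7% of all tested genes. DESeq2 called 2 higher, NEFL and GAP43, and the block 1 higher, NEFL. ELAVL4 had at most 4 counts and STMN2 at most 14 in any library.

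TAGLN made up 92.7% to 94.6% of the transgelin counts in RPMI plus B27 and 95.03%, 98.4% and 91.8% in DMEM plus fatty acids replicates 1 to 3. The TAGLN2 share was 6.58% (95% Wilson interval 6.17% to 7.01%), 5.41% (4.99% to 5.85%) and 7.34% (6.84% to 7.88%) in RPMI plus B27. It was 4.80% (3.72% to 6.17%), 1.56% (1.31% to 1.86%) and 8.22% (7.02% to 9.60%) in DMEM plus fatty acids. These intervals cover counting error only. The shares of the 2 media overlapped: DMEM plus fatty acids replicate 2, where TAGLN was high, had the lowest TAGLN2 share and replicate 3 the highest.

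**Figure D2:**
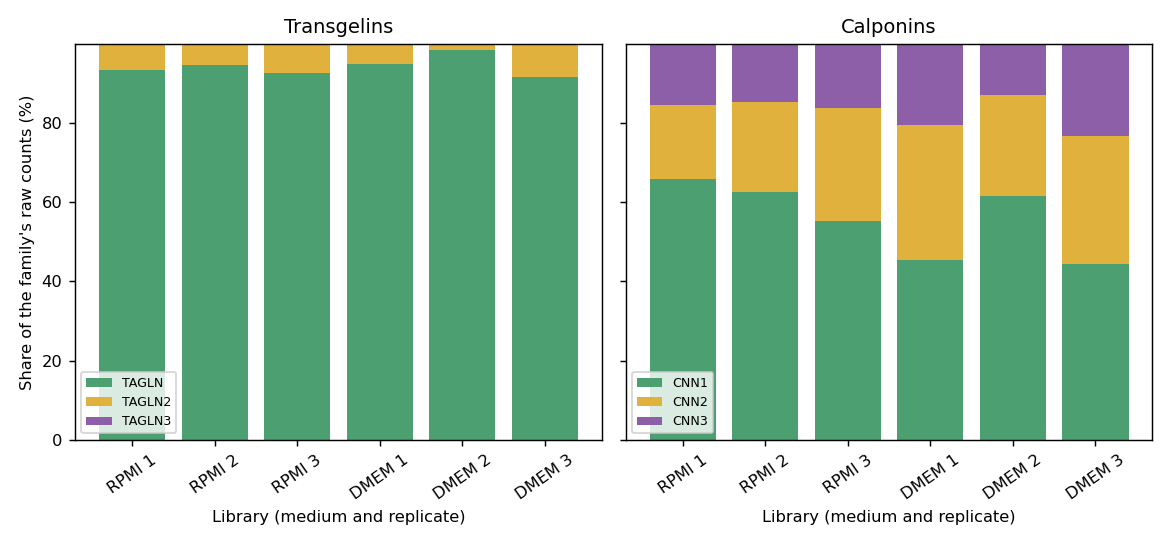
Share of raw counts (%) of each transgelin (left) and each calponin (right) in the 6 libraries, where RPMI stands for RPMI plus B27, DMEM for DMEM plus fatty acids, and the digit for the replicate. TAGLN holds 91.8% to 98.4% of the transgelin counts everywhere, and CNN1 is below 50% of the calponin counts only in DMEM plus fatty acids replicates 1 and 3 (45.3% and 44.4%).

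All 3 calponins were lower in DMEM plus fatty acids without overlap of libraries, and CNN3 was the most even of them. CNN1 (chr19:11538851-11550323, plus strand), the calponin of differentiated smooth muscle, was at 729.6, 590.5 and 493.2 CPM in RPMI plus B27 and at 213.0, 386.0 and 148.2 CPM in DMEM plus fatty acids. As with TAGLN, DMEM plus fatty acids replicate 2 was the highest of its medium, and it lay close to the lowest RPMI plus B27 library. The log2 fold change of CNN1 was -1.28 ± 0.34, or -1.38 ± 0.25 with the replicate number as a block, where it was called. Leaving out 1 library moved it between -1.74, without DMEM plus fatty acids replicate 2, and -1.01, without DMEM plus fatty acids replicate 3.

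CNN2 (chr19:1026608-1039065, plus strand) encodes a calponin of many non-muscle and smooth muscle cells. Its levels were 204.9, 215.2 and 254.1 CPM in RPMI plus B27 and 160.6, 160.3 and 107.8 CPM in DMEM plus fatty acids, a log2 fold change of -0.65 ± 0.18. CNN3 (chr1:94896957-94927110, minus strand), the acidic calponin, was at 171.4, 137.7 and 143.1 CPM against 96.1, 80.9 and 77.5 CPM. Its log2 fold change was smaller than that of CNN1 at -0.83 ± 0.14, but the ratio of highest to lowest library was only 1.24 in each medium, against 2.61 for CNN1 in DMEM plus fatty acids. The within-number log2 differences of CNN3 were also close together, at -0.83, -0.77 and -0.88.

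In percentage points, the share of CNN1 among the calponins differed more between libraries than that of TAGLN among the transgelins. As a ratio of highest to lowest library, the TAGLN2 share (1.56% to 8.22%) differed more than that of any calponin. CNN1 held 65.98%, 62.6% and 55.4% of calponin counts in RPMI plus B27 and 45.3%, 61.5% and 44.4% in DMEM plus fatty acids. The means were 61.3% ± 5.41 and 50.4% ± 9.62 (SD, n = 3 each), and DMEM plus fatty acids replicate 2 lay inside the RPMI plus B27 range. CNN3 held 14.6% to 16.1% in RPMI plus B27 and 20.5%, 12.9% and 23.2% in DMEM plus fatty acids, and CNN2 held the rest.

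Among the filament regulators, LMOD1 and CALD1 were lower in every DMEM plus fatty acids library than in any RPMI plus B27 library. LMOD1 (chr1:201896456-201946548, minus strand) encodes the smooth muscle leiomodin. It was at 198.5, 161.6 and 185.2 CPM in RPMI plus B27 and at 67.3, 68.5 and 41.1 CPM in DMEM plus fatty acids. The means were 181.8 ± 18.7 and 59.0 ± 15.5 CPM (SD, n = 3 each), a log2 fold change of -1.62 ± 0.21. Unlike TAGLN and CNN1, LMOD1 was about equal in DMEM plus fatty acids replicates 1 and 2. CALD1 (chr7:134711499-134970729, plus strand) encodes caldesmon, in a smooth muscle and a non-muscle form that gene counts do not separate. It was at 428.5, 333.8 and 247.8 CPM in RPMI plus B27 and at 106.0, 150.5 and 133.1 CPM in DMEM plus fatty acids, a log2 fold change of -1.37 ± 0.23. The highest CALD1 library was RPMI plus B27 replicate 1, and without it the log2 fold change was -1.16.

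MYH11 and SMTN were the members whose libraries overlapped between media. MYH11 (chr16:15703135-15857028, minus strand), the smooth muscle myosin heavy chain and a marker of differentiated smooth muscle, was at 81.2, 55.3 and 18.2 CPM in RPMI plus B27 and at 19.0, 45.7 and 4.42 CPM in DMEM plus fatty acids. Its libraries differed 4.46-fold inside RPMI plus B27 and 10.4-fold inside DMEM plus fatty acids, and the log2 fold change was -1.16 with an SE of 0.80. Within replicate numbers 1, 2 and 3 the log2 differences of MYH11 were -2.09, -0.27 and -2.04, and replicate 3 was the lowest library in both media. SMTN (chr22:31064118-31104624, plus strand), which encodes smoothelin, was at 91.1, 47.9 and 48.8 CPM in RPMI plus B27 and at 53.3, 51.1 and 45.4 CPM in DMEM plus fatty acids. Only RPMI plus B27 replicate 1 stood apart: the log2 fold change of SMTN was -0.33 ± 0.26 with that library and 0.04 without it.

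**Figure D3:**
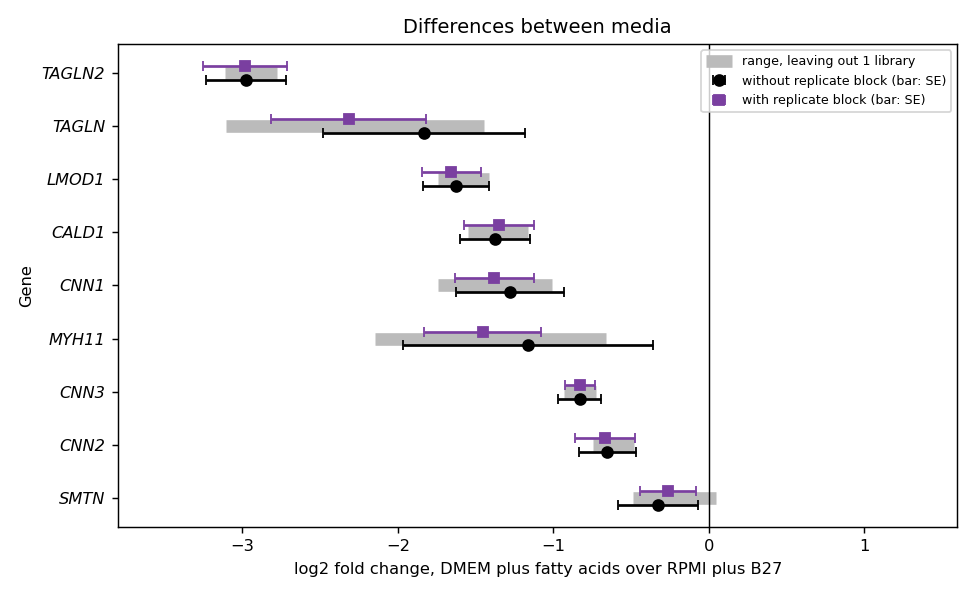
log2 fold change between media (negative is lower in DMEM plus fatty acids) of the 9 tested members without (black circles) and with (purple squares) the replicate number as a block, with SE as bars and, in grey, the range over the 6 fits that each left out 1 library. TAGLN2 is lowest at -2.98, the grey ranges of TAGLN (-3.11 to -1.45) and MYH11 (-2.14 to -0.66) are the widest, and only that of SMTN reaches above 0.

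Libraries of a medium were ordered alike for many members. RPMI plus B27 replicate 1 was the highest of its medium for 8 of 9 tested members, CNN2 being the exception. DMEM plus fatty acids replicate 3 was the lowest of its medium for 7 of 9, the exceptions being TAGLN2 and CALD1, and replicate 2 was the highest for 5 of 9 (TAGLN, CNN1, MYH11, LMOD1 and CALD1). Summed over the 10 members, the level was 2417, 1999 and 1750 CPM in RPMI plus B27 and 766.4, 1200.5 and 609.1 CPM in DMEM plus fatty acids, with no overlap. By the root-mean-square (RMS) difference of log2 CPM centred on each gene's mean over the 6 libraries, the most alike members were CNN2 and CNN3 (0.24) and the least alike TAGLN2 and MYH11 (1.43).

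Per kilobase of annotated exon (GENCODE release 29, all transcripts merged), CNN1 had the highest level in both media. It was 209.4 ± 41.2 CPM per kb (SD, n = 3) with RPMI plus B27, against 86.3 ± 42.6 with DMEM plus fatty acids. In RPMI plus B27 it was followed by TAGLN (105.7 ± 18.9), CNN2 (61.7 ± 7.12), CNN3 (53.1 ± 6.37), LMOD1 (45.8 ± 4.71) and CALD1 (34.2 ± 9.18). Of these neighbours in order, CNN2 and CNN3, CNN3 and LMOD1, and LMOD1 and CALD1 overlapped in their libraries. TAGLN2 (11.4 ± 1.91), SMTN (6.12 ± 2.41) and MYH11 (3.20 ± 1.97) came last among tested members, with SMTN and MYH11 overlapping. In DMEM plus fatty acids TAGLN (29.7 ± 30.3 CPM per kb) dropped from the second to the fourth place and overlapped both its neighbours, CNN3 and LMOD1. TAGLN2 (1.43 ± 0.391) there lay below SMTN (4.88 ± 0.394) with no overlap, the reverse of their order in RPMI plus B27. These levels depend on the merged exon lengths, since the isoforms present were not measured.

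Beyond the members, 27 other contractile and adhesion genes of smooth muscle were tested, and 26 had a negative log2 fold change (median -0.71). The list was written with earlier results of these data known, so its counts and adjusted p-values are no independent test. Of the 27, 3 fell and 0 rose, beside 1.07% lower among all tested genes, and 21 had an unadjusted p under 0.05, as did 17.7% of all tested genes. KCNMA1, the pore subunit of the large-conductance calcium-activated potassium channel, was at 5.31 ± 1.37 CPM and fell to 0.625 ± 0.270 CPM (-3.06 ± 0.39 on the log2 scale, adjusted p 0.0292, edgeR). CSRP1, a LIM protein of smooth muscle, fell from 222.4 ± 17.5 to 72.0 ± 31.1 CPM (-1.63 ± 0.29, adjusted p 0.0492, edgeR). The tropomyosin gene TPM2 was the other (-1.08 ± 0.14, adjusted p 0.0292, edgeR). With the replicate number as a block 8 fell and 0 rose, beside 3.42% lower among all tested genes. The additional ones were ACTG2, MYLK, PDLIM3, PDLIM7 and FLNA. Leaving out RPMI plus B27 replicate 1 or 2, or DMEM plus fatty acids replicate 1 or 3, left 0 of the 27 called, and leaving out DMEM plus fatty acids replicate 2 left 2.

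ACTA2, the smooth muscle alpha-actin gene, did not pass in either fit and had the same uneven pattern as TAGLN, at 461.6, 545.2 and 525.0 CPM in RPMI plus B27 and 76.5, 371.8 and 70.2 CPM in DMEM plus fatty acids. MYLK, the myosin light chain kinase gene, was at 30.8, 46.4 and 17.3 CPM against 3.88, 21.2 and 4.71 CPM. In both, DMEM plus fatty acids replicate 2 was far above the other 2 libraries of its medium. It was the highest of its medium for 19 of the 27 genes. The regulatory light chain gene MYL9, at 1930 to 2395 CPM against 1261 to 2404 CPM, and the desmin gene DES, at 41.8 to 150.2 CPM against 63.8 to 86.1 CPM, overlapped widely. These 4 genes were named after their values were seen.

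**Figure D4:**
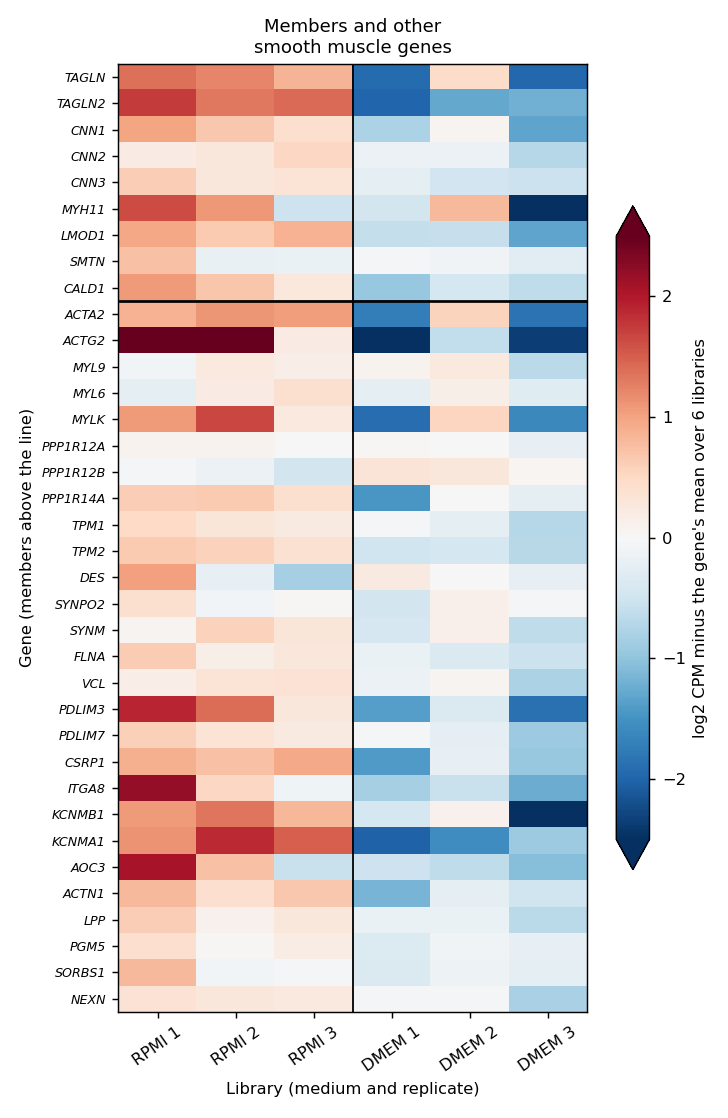
log2 CPM of each gene minus its mean over the 6 libraries (red higher, blue lower, colours saturating beyond 2.5), for the 9 tested members above the line and the 27 other smooth muscle genes below it. Columns are the 3 RPMI plus B27 (RPMI) and 3 DMEM plus fatty acids (DMEM) libraries. TAGLN, MYH11, ACTA2 and MYLK are above their mean in DMEM replicate 2 and low in DMEM replicates 1 and 3, while TAGLN2 and LMOD1 are low in all 3.

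Among family relatives of LMOD1, SMTN and MYH11, 0 of 9 tested genes passed by edgeR with or without the block. The DESeq2 Wald test called 1, TMOD3. An unadjusted p under 0.05 was reached by 3 in edgeR, beside 17.7% of all tested genes. The median log2 fold change of the 9 was -0.23. The cardiac leiomodin LMOD2 was at 192.3, 114.3 and 85.3 CPM in RPMI plus B27 and 197.2, 60.3 and 27.1 CPM in DMEM plus fatty acids, with the media overlapping. The non-muscle myosin gene MYH9 was at 722.0 ± 130.1 and 734.5 ± 104.1 CPM (SD, n = 3 each), a log2 fold change of 0.02 ± 0.19.

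Of 24 regulators of the smooth muscle programme, 0 passed by edgeR, 9 had an unadjusted p under 0.05, and the median log2 fold change was -0.47. With the replicate number as a block 3 fell and 0 rose, beside 3.42% lower among all tested genes. These were HEYL, PRRX1 and TBX18, transcription factors of vascular, mesenchymal and epicardial cells. The DESeq2 Wald test called 4 lower, CSRP2, FHL2, HEYL and TBX18, beside 5.14% of all tested genes. MYOCD, which encodes myocardin, was at 346.0 ± 40.8 CPM in RPMI plus B27 and 253.9 ± 22.8 CPM in DMEM plus fatty acids, with a log2 fold change of -0.45 ± 0.14. SRF was at 213.8 ± 49.3 and 142.4 ± 40.7 CPM (SD, n = 3 each), with -0.59 ± 0.26. The libraries of SRF overlapped between media and those of MYOCD did not. Of the 24 regulators, 22 had a negative log2 fold change, beside 49.0% of all tested genes. The libraries of 8 were lower without overlap, beside 12.8% of all tested genes. The genes of these lists that did not pass without the block were named for their role or after their values were seen.

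Several fibroblast markers were called lower in DMEM plus fatty acids by edgeR without the block. Of the pericyte, epicardial and endothelial markers only KRT8 passed in that fit, but this contrast depended on the setting. With the replicate block 8 of 12 fibroblast, 4 of 7 epicardial and 1 of 8 pericyte markers (PDGFRB) were lower, beside 3.42% of all tested genes. By DESeq2 these were 9 of 12, 4 of 7 and 2 of 8, beside 5.14%. The 12 fibroblast markers summed to 7311 to 15136 CPM in RPMI plus B27 and 1183 to 2879 CPM in DMEM plus fatty acids. Without the block 5 of the 12 fell (COL1A1, COL3A1, DCN, POSTN and FBN1) while 0 rose, beside 1.07% lower among all tested genes. RPMI plus B27 replicate 1, the highest of its medium for 8 members, also had the highest fibroblast marker sum, 15136 CPM against 8158 and 7311 CPM in replicates 2 and 3. All pericyte markers but RGS5 and ABCC9 were likewise highest there, though unevenly. PDGFRB was at 74.9 CPM against 18.9 and 11.6 CPM, while CSPG4 was nearly level at 79.4, 79.2 and 74.0 CPM. RGS5, the most abundant of them, was lowest there, at 304.8 CPM against 379.7 and 344.2 CPM. The 9 pericyte markers summed to 626.2 to 742.3 CPM and 335.2 to 546.3 CPM. Of 8 tested, 0 passed by edgeR without the block and DESeq2 called 2. An unadjusted p under 0.05 was reached by 4 in edgeR, beside 17.7% of all tested genes. The 9 epicardial markers summed to 1975 to 2400 CPM and 885.2 to 1098 CPM, nearly all from keratins that cardiomyocytes in culture can also express. Of 7 tested, 1 passed by edgeR without the block, KRT8. WT1, the defining epicardial factor, had 2 to 23 counts per library. The 10 endothelial markers summed to 38.9 to 241.6 CPM and 115.8 to 464.1 CPM, with overlap. Nearly all of this was KDR, except in RPMI plus B27 replicate 1, where KDR was at 27.5 CPM of the 38.9 CPM. Of 4 tested, 0 passed by edgeR without the block and 2 had an unadjusted p under 0.05, beside 17.7% of all tested genes. With the replicate block KDR was called higher and EMCN lower, and DESeq2 called EMCN and TEK lower. PECAM1 had at most 5 counts in any library. The part of such cells in the members' differences was not tested.

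DMEM plus fatty acids replicate 2, with the highest TAGLN, CNN1 and MYH11 of its medium, had a fibroblast marker sum of 2588 CPM, between the 1183 and 2879 CPM of replicates 1 and 3. Its pericyte marker sum was the highest of the medium, 546.3 against 335.2 and 371.5 CPM. Most of this sum was RGS5, at 303.2 against 171.1 and 189.0 CPM. Only 4 of the 8 tested pericyte markers were highest in replicate 2, and PDGFRB was level, at 2.84 against 3.01 and 2.67 CPM. The cardiomyocyte markers summed to 32371 to 40286 CPM in RPMI plus B27 and 26426 to 36464 CPM in DMEM plus fatty acids, with overlap. Without the block 0 of 13 passed by edgeR, and 3 had an unadjusted p under 0.05, beside 17.7% of all tested genes. With the replicate block 2 fell, MYH7 and ACTN2, and 0 rose, beside 3.42% lower among all tested genes. DESeq2 called the same 2 lower, beside 5.14% lower among all tested genes, and 1 higher, MYH6.

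**Figure D5:**
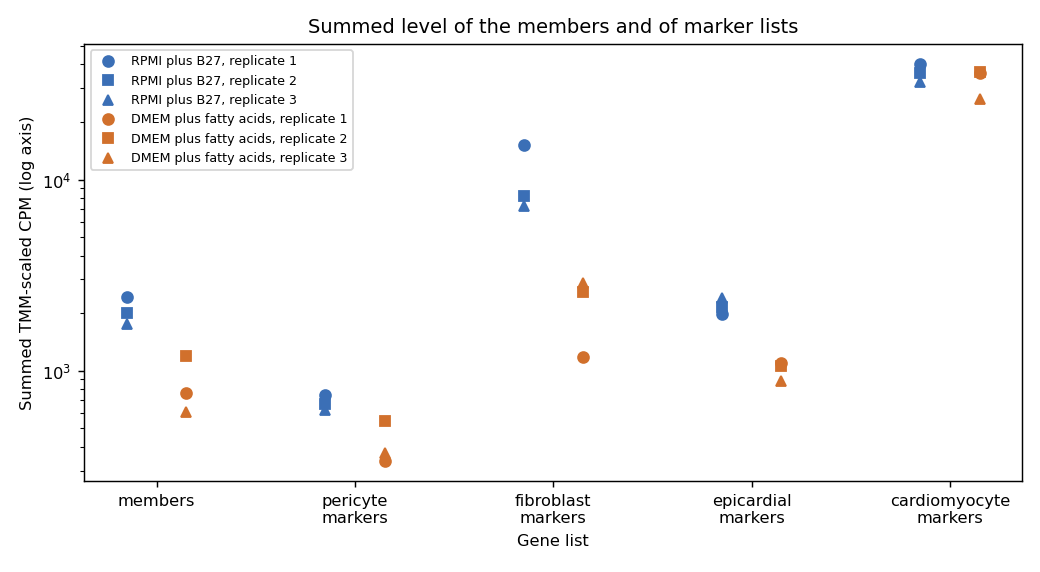
Summed TMM-scaled CPM (log axis) of the 10 members and of 4 marker lists in each library, with symbols for the replicate number. The sums of the members and of the pericyte, fibroblast and epicardial markers do not overlap between media, and the cardiomyocyte marker sums do.

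The genes most like TAGLN2 and LMOD1 across the 6 libraries were taken by the smallest RMS difference of centred log2 CPM among the 10019 tested genes that averaged 10 CPM or more. For TAGLN2 they were ITGA11 (0.28), LEFTY2 (0.30), COL1A1 (0.33), SP6 (0.33) and EPPK1 (0.35), where the median over all compared genes was 1.54. For LMOD1 they were COL5A2 (0.15), PFKFB3 (0.19), LMCD1 (0.21), CAVIN4 (0.23) and PROSER2 (0.23), with a median of 0.90. Their lower level in DMEM plus fatty acids follows from how they were picked.

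Reads could be shared between members and other genes in a few places. The coding sequences of the transgelins, and those of the calponins, were 68.6% to 70.9% identical in pairs, with shared runs of at most 14 to 23 bases (GENCODE release 29). CNN2 has 11 pseudogenes named after it, TAGLN2 and CNN3 have 1 each, and reads that fit several places were set aside. Exons of PCSK7 on the opposite strand cover 11.4% of the exon bases of TAGLN, and PCSK7 had 711 to 1110 counts per library, with a log2 fold change of -0.02 ± 0.14. Exons of NDE1 cover 4.75% of those of MYH11, and NDE1 had 310 to 911 counts, which exceeded the MYH11 count in replicate 3 of both media (717 against 488 in RPMI plus B27, 911 against 149 in DMEM plus fatty acids). Other opposite-strand genes cover 13.5% of the exon bases of LMOD1, 9.27% of those of CNN2 and 3.49% of those of SMTN. Whether the counting used strand is not given in the sources used here, so TAGLN, MYH11, LMOD1, CNN2 and SMTN carry this uncertainty.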

How the data were processed

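RNA from 6 cultures was sequenced after stranded mRNA preparation, as the protocols on the labels state. The authors deposited whole-number counts for each gene symbol, separately for every library, and the submitters' processing notes name STAR, HTSeq and hg38 without versions. The annotation and strand setting are not given in the sources used here. The 5 summary rows entered neither totals nor tests: of each file's total, 5.44% to 7.57% had no feature, 3.90% to 4.15% were ambiguous and 3.05% to 4.10% aligned to several places.

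Counts were filtered with filterByExpr (minimum count 10, minimum total 15) and scaled by TMM. They were fitted across all 16107 retained genes with the edgeR 4.0.16 quasi-likelihood test (R 4.3.3), medium as the only term, Benjamini-Hochberg threshold 0.05. DESeq2 1.42.0 was an alternative, and the edgeR step was tested on simulated data. Negative log2 fold changes are lower in DMEM plus fatty acids. The SE given with an edgeR log2 fold change is its absolute value divided by the square root of the test's F statistic. Every 2 libraries differed beyond sampling noise (chi-square per degree of freedom at least 29.4).

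Replicate numbers are shared between media. Deviations from the medium mean correlated across genes at 0.31, 0.43 and 0.37 for libraries with the same number and at -0.24 to -0.14 otherwise. The numbers were therefore taken to pair the libraries in the block fit, while the main fit left this pairing out. What a number stands for is not on the labels. The members and gene lists were chosen with earlier results of these data known. Named were all members, up to 4 called genes of each list with the smallest p, and the 5 genes most like TAGLN2 and LMOD1 (prior count 2 on log2 CPM). The called fibroblast marker COL3A1 and single marker genes outside this rule were added after their values were seen. Others are marked where named. Promoter sequences and gene coordinates came from RefSeq tables (GRCh38.p14).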

Additional observations from a re-analysis of the deposited data

How the results depend on the processing

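All 9 tested members kept a negative log2 fold change in every setting tried except SMTN without RPMI plus B27 replicate 1, and 107 of 108 single values moved by less than the spread between replicates. The exception was TAGLN without DMEM plus fatty acids replicate 2. Calls depended more on the settings. The number of genes called went from 219 to 1218 by the DESeq2 Wald test, 539 with all genes of at least 1 count, 119 with at least 10 counts in every library, and 770 with the replicate block. The count of members called was 4 and became 2 (TAGLN2 and LMOD1) with at least 10 counts in every library and 3 with scaling by total counts, where CALD1 lost its call. That scaling left 2 of the 27 other smooth muscle genes called. For the 27 other smooth muscle genes the count of 3 became 10, 6, 1 and 8 in these 4 settings. For the 24 regulators the count of 0 became 4 by DESeq2, 1 with all genes and 3 with the replicate block, and for the 9 relatives it became 1 by DESeq2. Leaving out 1 library gave 3 to 131 genes called, 0 to 2 members, 0 to 3 of the other smooth muscle genes, and a members' median of -1.74 to -1.01. No member was called without RPMI plus B27 replicate 2 or DMEM plus fatty acids replicate 3, and 2 were called without RPMI plus B27 replicate 3. TAGLN2 was called in 3 of these 6 fits, CALD1 and TAGLN in 1 each, and LMOD1 and CNN3 in 0. The block changed no other call of a member than that of CNN1. These fits also have fewer residual degrees of freedom. Low counts limit TAGLN2 in DMEM plus fatty acids and TAGLN3 throughout.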
